A study of Mus musculus with 5 samples.

Results

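The genes described here are 9 that mark or set the choice between the CD4 and CD8 lineages of T cells: Cd4, Cd8a, Cd8b1, Zbtb7b, Runx1, Runx2, Runx3, Cbfb and Crtam. They were taken by gene name from a table of 35275 genes, and all 9 were among the 13298 genes with enough reads to be tested. RNA was sequenced from sorted spleen cells of wild-type C57BL/6 mice aged 3 months, with no treatment or engineered allele named. The 5 libraries comprise 2 labelled CD4 Treg (regulatory T cells of the CD4 lineage), 1 labelled CD8 Treg (those of the CD8 lineage) and 2 labelled CD49lo. The series title names CD8 effector cells as its remaining population, so CD49lo is read as that population by elimination; which CD49 chain is meant is not stated. All 5 libraries carry the same protocol, in which spleen lymphocytes were enriched for CD8 cells before the sort. Nothing states that replicates came from separate animals; p-values therefore reflect only how much these libraries vary, and that variation may be technical. Every CD8 Treg value is a single library and has no replicate check of its own.

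A T cell leaves the thymus with either CD4 or CD8 on its surface. CD4 binds MHC class II beside the T cell receptor, and CD8, a dimer of the chains made by Cd8a and Cd8b1, binds MHC class I. Zbtb7b encodes ThPOK, which holds cells to the CD4 lineage and represses CD8 lineage genes. Runx3 acts in the opposite direction: with its partner Cbfb it represses Cd4 and Zbtb7b and sustains CD8 genes. Runx1 is a related factor that represses Cd4 in early thymocytes and works with Foxp3 in CD4 Treg. Crtam encodes an adhesion receptor of activated CD8 T cells and NK cells.

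Values are RPKM, reads scaled to gene length and to library depth, as deposited by the authors. The libraries hold 5441444 to 8354971 reads in genes, and 1 read in a gene of 1 kilobase is worth 0.120 to 0.184 RPKM. Differences are log2 fold changes of RPKM + 0.5 with their standard errors, fitted by limma over all 5 libraries. A gene was called at a Benjamini-Hochberg adjusted p under 0.05 over all genes tested. The 3 comparisons share libraries and are not independent of each other. In bulk RNA, fewer cells of a type and less RNA per cell cannot be told apart.

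The 9 T cell markers, Cd3 chains included, summed to 4944 and 4820 RPKM in CD4 Treg, to 3296 in CD8 Treg and to 3567 and 3819 in CD49lo, with none at 0. Of these 9, 3 were called higher in CD4 Treg than in CD49lo (Cd247, Cd5 and Cd2), beside 9.41% of all genes tested. In CD8 Treg, 4 were lower than in CD4 Treg, beside 8.35% of all genes. Between CD8 Treg and CD49lo 0 were called, beside 5.37% in either direction. The part of these markers in the results below was not tested. The 5 CD4 Treg markers summed to 535 and 551 RPKM in the CD4 Treg libraries, to 7.31 in CD8 Treg and to 22.3 and 15.3 in CD49lo. The CD4 Treg libraries also differed from the others in sex-linked RNA. Xist stood at 35.5 and 27.2 RPKM in CD4 Treg and at 0 to 0.0834 in the other 3 libraries, while the Y-linked Ddx3y stood at 18.3 to 27.4 in those 3 and at 0 and 0.0701 in CD4 Treg. The labels give no sex, and in every comparison with CD4 Treg this split and the cell population cannot be told apart.

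Between CD4 Treg and CD49lo, 7 of the 9 genes were called, against 22.2% of all genes tested. Cd4 and Zbtb7b were higher in CD4 Treg, where 9.41% of all genes were, and Cd8a, Cd8b1, Runx2, Runx3 and Crtam were lower, where 12.8% were. Runx1 and Cbfb were not called, and the other 7 had no overlap between the libraries of these groups, which held for 60.2% of all genes. In CD8 Treg against CD49lo, 3 of the 9 were called, against 5.37% of all genes: Cd4, Zbtb7b and Runx1, all lower in CD8 Treg, the direction of 3.65%; none of the 9 was called higher, the direction of 1.71%. By RPM, without the scaling factors of the fit, 8 of the 9 lay outside the CD49lo range in CD8 Treg, against 75.7% of all genes in either direction. These 8 lay below it, but with scaling the fitted Runx3 difference was 0.09. The share of all genes below the range was not counted. In CD8 Treg against CD4 Treg, 8 of the 9 were called, against 16.9% of all genes, and only Cbfb was not. There, 5 were higher in CD8 Treg, as were 8.51% of all genes, and Cd4, Zbtb7b and Runx1 were lower, as were 8.35%. All 9 lay outside the CD4 Treg range, as did 81.6% of all genes. The median log2 difference of the 9 genes in these comparisons was -1.29, -0.29 and 1.38, beside medians over all genes tested of -0.03, -0.04 and 0.02. Without either CD49lo library limma called 0 of the 9 in any comparison, and without either CD4 Treg library it called only Cd4 between CD8 Treg and CD49lo; with the prior variance taken from genes with spread between replicates, a setting chosen after seeing the data, each of these 4 fits called 7, 3 and 8 of the 9.

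**Figure D1:**
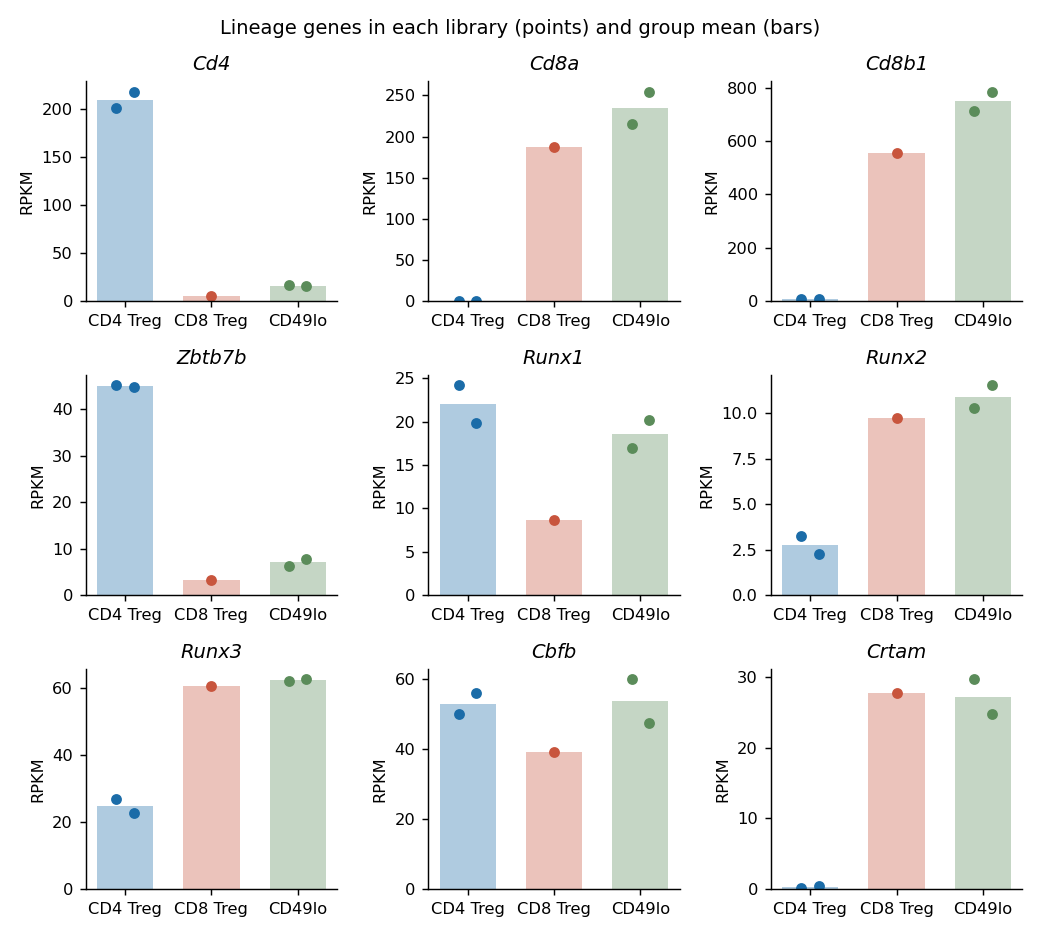
RPKM of the 9 lineage genes in each of the 5 libraries. Points are libraries and bars are group means (2 CD4 Treg, 1 CD8 Treg and 2 CD49lo libraries); each panel has its own linear axis from 0. Cd4 and Zbtb7b stand highest in CD4 Treg, the CD8 chains, Runx2, Runx3 and Crtam stand lowest there, and Runx1 stands lowest in CD8 Treg.

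Cd4 (ENSMUSG00000023274, mm10 chr6:124864692-124888221, minus strand) was measured at 201 RPKM in CD4 Treg replicate 1, at 219 in replicate 2, at 5.77 in CD8 Treg and at 16.5 and 15.6 in CD49lo. The groups did not overlap: CD4 Treg lay far above both CD8 populations, and CD8 Treg lay below both CD49lo libraries. These levels placed Cd4 among the 260 most abundant tested genes of each CD4 Treg library and at rank 7348 in CD8 Treg. The difference between CD4 Treg and CD49lo was 3.69 ± 0.12 (adjusted p = 2.28e-07), and CD8 Treg lay below CD4 Treg by -4.97 ± 0.15 (adjusted p = 2.94e-07). CD8 Treg also held less Cd4 than CD49lo, by -1.27 ± 0.15 (95% interval -1.61 to -0.94, adjusted p = 0.00191; 0.249 and 0.224 without CD49lo replicate 1 or 2). In reads this last comparison rests on 109 in CD8 Treg and on 428 and 318 in CD49lo, and the depth-scaled ratio of CD49lo over CD8 Treg was 2.79 (exact 95% interval 2.28 to 3.44, counting error only).

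Cd8a and Cd8b1 lie beside each other on chromosome 6, on the same strand and 35949 bases apart. Cd8a (ENSMUSG00000053977, chr6:71373427-71379171, plus strand) stood at 0.412 and 0.352 RPKM in CD4 Treg, at 187 in CD8 Treg and at 215 and 255 in CD49lo. Cd8b1 (ENSMUSG00000053044, chr6:71322836-71337477, plus strand) stood at 9.32 and 8.42 RPKM in CD4 Treg, at 556 in CD8 Treg and at 712 and 785 in CD49lo. Both chains were thus high in both CD8 populations, and the CD8 Treg library lay below the CD49lo libraries for each. Against CD49lo, CD4 Treg was lower by -8.02 ± 0.15 for Cd8a and by -6.29 ± 0.11 for Cd8b1 (both adjusted p = 5.41e-09). The Cd8a value of CD4 Treg rests on 8 and 6 reads, which gives a depth-scaled ratio of CD49lo over CD4 Treg of 605 with an exact counting interval of 360 to 1107. Neither chain was called between CD8 Treg and CD49lo: Cd8a differed by -0.19 (95% interval -0.59 to 0.22, adjusted p = 0.645) and Cd8b1 by -0.29 (-0.61 to 0.02, adjusted p = 0.299).

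The balance of the CD8 chains differed between the CD4 Treg libraries and the others. Per length, Cd8b1 stood at 2.97 times Cd8a in CD8 Treg (exact 95% interval 2.84 to 3.10) and at 3.31 and 3.08 times in CD49lo. In CD4 Treg the ratio was 22.6 (11.0 to 54.2) and 23.9 (10.4 to 67.5). The intervals of the CD4 Treg libraries lie above those of all 3 CD8 libraries. In CD4 Treg the ratio rests on 82 and 65 reads of Cd8b1 and on 8 and 6 of Cd8a. The intervals cover counting error only, and the source of these reads was not tested. As a share of the CD49lo mean, CD4 Treg held 0.163% of the Cd8a level and 1.18% of the Cd8b1 level. Smyd1, a muscle methyltransferase gene, lies 602 bases from Cd8b1 on the opposite strand. It stood at 0.0480 and 0.328 RPKM in CD4 Treg, at 0.343 in CD8 Treg and at 2.96 and 3.44 in CD49lo. These values rest on 1 and 6 reads in CD4 Treg, 7 in CD8 Treg and 83 and 76 in CD49lo. Smyd1 was called lower in CD4 Treg than in CD49lo but was not called between CD8 Treg and either of them. Its difference in pattern from Cd8b1 was not tested.

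Zbtb7b (ENSMUSG00000028042, chr3:89377644-89394776, minus strand) followed Cd4 in direction. It stood at 45.1 and 44.7 RPKM in CD4 Treg, at 3.23 in CD8 Treg and at 6.27 and 7.77 in CD49lo, and the groups did not overlap. CD4 Treg exceeded CD49lo by 2.63 ± 0.15 (adjusted p = 5.59e-06), and CD8 Treg lay below CD4 Treg by -3.51 ± 0.19 (adjusted p = 5.70e-06). Against CD49lo, CD8 Treg was lower by -0.88 ± 0.19 (95% interval -1.31 to -0.46, adjusted p = 0.0290), from 85 reads against 227 and 221. This call did not hold in 6 of 11 alternative analyses with all libraries of the comparison kept, among them limma-voom on the recovered reads (adjusted p = 0.153), and the lowest adjusted p of these 11 was 0.0169. The read ratio of CD49lo over CD8 Treg was 2.15 with a counting interval of 1.70 to 2.74.

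Neither Cd4 nor Zbtb7b was absent from the CD8 populations. CD8 Treg held 2.75% of the mean CD4 Treg level of Cd4 and 7.19% of that of Zbtb7b. The CD49lo libraries held 7.85% and 7.42% for Cd4, and 14.0% and 17.3% for Zbtb7b. Genes of the CD4 Treg state were at other percentages of their CD4 Treg level. Foxp3, the defining factor of CD4 Treg, stood at 0.265% in CD8 Treg and at 1.13% and 0.544% in CD49lo. Il2ra, the alpha chain of the IL-2 receptor, stood at 0.880% in CD8 Treg and at 1.99% and 1.14% in CD49lo. Zbtb7b and Cd4 were thus at a higher percentage than Foxp3, Il2ra and Lrrc32 in every CD8 library. Ikzf2, which encodes Helios, was not: it stood at 8.07% in CD8 Treg, above both, and at 5.37% and 6.13% in CD49lo, below both. Ctla4, the inhibitory receptor, was at 10.4% and 6.74% in CD49lo, near Cd4, but at 0.963% in CD8 Treg.

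**Figure D2:**
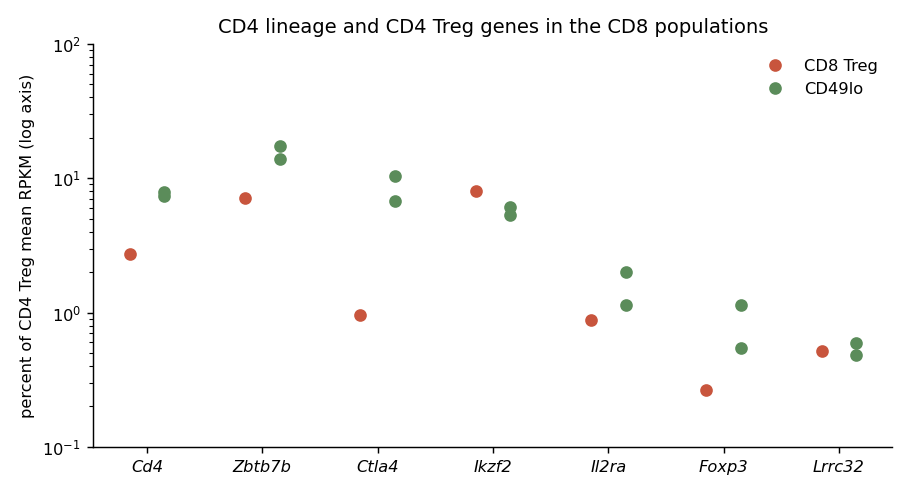
Level of Cd4, Zbtb7b and 5 CD4 Treg genes in each CD8 library as a percentage of the CD4 Treg mean RPKM, on a log axis; points are libraries (1 CD8 Treg, 2 CD49lo). Zbtb7b reaches 14.0% and 17.3% in CD49lo, while Foxp3 stays between 0.265% and 1.13% in the 3 libraries.

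Markers of other cell types moved with some of these differences. Dendritic cells of the mouse spleen include subsets that carry CD4 or the CD8 alpha chain. The 9 dendritic cell markers summed to 52.4 and 50.2 RPKM in CD4 Treg, to 379 in CD8 Treg and to 817 and 848 in CD49lo, most of it Cd74, the invariant chain. Of these 9 markers, 4 were called between CD8 Treg and CD49lo, all lower in CD8 Treg, as Cd4, Zbtb7b and Runx1 were. Over all genes tested, 3.65% were called lower in CD8 Treg and 1.71% higher. These shares stand beside every marker count of this comparison given here. Itgax, which encodes CD11c, stood at 5.09 RPKM in CD8 Treg and at 23.3 and 25.4 in CD49lo. Xcr1, which defines cross-presenting dendritic cells, stood at 0.111 RPKM in CD8 Treg against 0.753 and 0.616 in CD49lo. It was not called, and these values rest on 3 reads against 28 and 18. Clec9a was not called either, at 0 RPKM against 1.09 and 1.62, from 0 reads against 30 and 35. The B cell markers summed to 377 RPKM in CD8 Treg and to 676 and 553 in CD49lo, with none of 10 genes called between them and none at 0 in these libraries. Of the monocyte and macrophage markers, which summed to 147 RPKM in CD8 Treg and to 311 and 371 in CD49lo, 1 of 7 measured was called lower in CD8 Treg (Lyz2). The NK cell markers summed to 140 RPKM in CD8 Treg and to 164 and 254 in CD49lo, with 0 of 5 called. Red cell and platelet markers summed to 15.6 RPKM in CD8 Treg and to 30.0 and 68.9 in CD49lo, with 0 of 6 tested called, and the 2 gamma-delta T cell markers measured summed to less than 1 RPKM in every library. The part of such cells in the differences of the lineage genes was not tested.

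Several of these markers also differed between CD4 Treg and the CD8 populations. Beside the counts below, 12.8% of all genes tested were called lower in CD4 Treg than in CD49lo. The share called lower in CD4 Treg than in CD8 Treg was 8.51%. Monocyte and macrophage markers summed to 12.1 and 7.83 RPKM in CD4 Treg, with 7 of 7 called lower than in CD49lo and 6 of 7 lower than in CD8 Treg. NK cell markers summed to 6.11 and 1.80 RPKM, with 5 of 5 called lower than in either CD8 population and Ncr1 at 0. Of the dendritic cell markers, 7 of 9 were called lower in CD4 Treg than in CD49lo and 3 of 9 lower than in CD8 Treg, with Xcr1, Cd209a and Batf3 at 0 in both CD4 Treg libraries. B cell markers summed to 454 and 534 RPKM in CD4 Treg, between the sums of CD8 Treg and CD49lo replicate 1, and Ighm alone made 444 and 521 of it. Of 11 B cell rows of the table (Cr2 has 2), 10 were called lower in CD4 Treg than in CD49lo and 9 lower than in CD8 Treg, and Blk and Fcer2a were at 0 in CD4 Treg replicate 2. Red cell and platelet markers summed to 15.9 and 3.12 RPKM, with 2 of 6 called lower in CD4 Treg than in CD49lo and 1 of 6 lower than in CD8 Treg.

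The Runx factors bind the core sequence ACCACA, read as TGTGGT on the other strand, as heterodimers with Cbfb, and Runx genes are known to carry such sites near their own start. A promoter of each of the 3 Runx genes is therefore shown around this motif. RefSeq promoters (GRCm38.p6, the build of mm10; 250 bases before to 50 after a start) were found for 6 of the 9 members, as 9 entries. A run of 18 bases, with the motif 2 times and 2 bases between, was identical in a listed promoter of each of Runx1, Runx2 and Runx3. These entries were picked because they share the longest run. The second listed promoters of Runx1 and Runx3 held no motif. The 30 bases around it are given 5′ to 3′ along each gene, with the motif in capitals:
Runx1, chr16:92826025-92826054, minus strand: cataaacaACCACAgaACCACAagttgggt
Runx2, chr17:44814583-44814612, minus strand: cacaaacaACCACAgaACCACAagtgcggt
Runx3, chr4:135120503-135120532, plus strand: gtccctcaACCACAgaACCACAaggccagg

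In these entries the paired motif begins 28 bases after the start of Runx1 and 23 bases after that of Runx2, but 134 bases before that of Runx3. The flank of the Runx3 pair, wholly upstream of the start, is shown because this is the Runx gene with the highest level in every library.
Runx3, chr4:135120449-135120548, plus strand: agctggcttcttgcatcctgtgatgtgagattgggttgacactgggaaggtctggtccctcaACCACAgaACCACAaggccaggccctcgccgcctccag
Of 32851 promoters of 300 bases, 16.8% held the motif on either strand, 1.81% held it 2 or more times, and 4 held the shared 18 bases; the fourth is Gm16225, which starts beside Runx3. Among the members, Zbtb7b held a single copy 89 bases before its second listed start. The promoters of Cd8a and Cbfb held no match, and 4 of the 9 member entries held the motif. The 3 Runx genes did not share a direction across the populations, as the next values show.

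Runx3 (ENSMUSG00000070691, chr4:135120652-135177990, plus strand) stood at 26.9 and 22.9 RPKM in CD4 Treg, at 60.6 in CD8 Treg and at 62.3 and 62.8 in CD49lo. CD4 Treg lay below every CD8 library but kept a level within the top 3028 of the tested genes. The difference between CD4 Treg and CD49lo was -1.29 ± 0.12 (adjusted p = 7.33e-05), and CD8 Treg exceeded CD4 Treg by 1.38 ± 0.15 (adjusted p = 0.000266). CD8 Treg and CD49lo differed by 0.09 (95% interval -0.24 to 0.42, adjusted p = 0.804). By RPKM alone the CD8 Treg library sits just below CD49lo, and without the scaling between libraries this difference is -0.0448.

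Runx2 (ENSMUSG00000039153, chr17:44495987-44814797, minus strand), known best as the bone factor of the family, had the same order at a lower level. It stood at 3.24 and 2.27 RPKM in CD4 Treg, at 9.76 in CD8 Treg and at 10.3 and 11.5 in CD49lo. CD4 Treg was lower than CD49lo by -1.80 ± 0.19 (adjusted p = 0.000162) and CD8 Treg higher than CD4 Treg by 1.77 ± 0.24 (adjusted p = 0.000955). CD8 Treg and CD49lo differed by -0.02, with an interval of -0.56 to 0.51 (adjusted p = 0.973). Supt3 and the antisense gene Runx2os1 overlap Runx2 on the other strand, and whether the counting used strand is not given in the sources used here, so their reads cannot be told apart from those of Runx2. Runx2os1 stood at 0 and 0.464 RPKM in CD4 Treg, at 6.24 in CD8 Treg and at 1.06 and 3.66 in CD49lo. Supt3 was instead highest in CD4 Treg, at 7.38 and 6.69 RPKM, with 3.08 in CD8 Treg and 4.81 and 2.85 in CD49lo.

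Runx1 (ENSMUSG00000022952, chr16:92601466-92826149, minus strand) did not follow its relatives. It stood at 24.2 and 19.8 RPKM in CD4 Treg, at 8.62 in CD8 Treg and at 17.0 and 20.1 in CD49lo. The CD4 Treg and CD49lo libraries overlapped, and CD8 Treg lay below all 4 of them. CD8 Treg was lower than CD49lo by -0.93 ± 0.18 (95% interval -1.33 to -0.53, adjusted p = 0.0178), from 307 reads against 832 and 775, and lower than CD4 Treg by -1.19 ± 0.18 (adjusted p = 0.00179). CD4 Treg and CD49lo differed by 0.26 (95% interval -0.06 to 0.59, adjusted p = 0.244). The call against CD49lo was lost in 4 of 11 alternatives that kept all libraries of the comparison (adjusted p 0.00419 to 0.176), and the call against CD4 Treg in 2 of 11.

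Within the family, Runx3 made up a larger part of the summed Runx level in the CD8 populations. In CD4 Treg, Runx1 and Runx3 were nearly level, at 44.5% and 49.5% of the summed RPKM in replicate 1 and at 44.1% and 50.8% in replicate 2. In CD49lo, Runx3 made 69.5% and 66.5% and Runx1 19.0% and 21.3%. In the CD8 Treg library, Runx3 made 76.7% and Runx1 10.9%. The ratio of Runx1 to Runx3 was 0.142 in CD8 Treg (exact 95% interval 0.125 to 0.161) and 0.273 (0.251 to 0.296) and 0.321 (0.294 to 0.350) in CD49lo; these intervals cover counting error alone, and the difference was not tested. The summed Runx level itself stood at 54.3 and 45.0 RPKM in CD4 Treg, at 79.0 in CD8 Treg and at 89.6 and 94.5 in CD49lo.

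**Figure D3:**
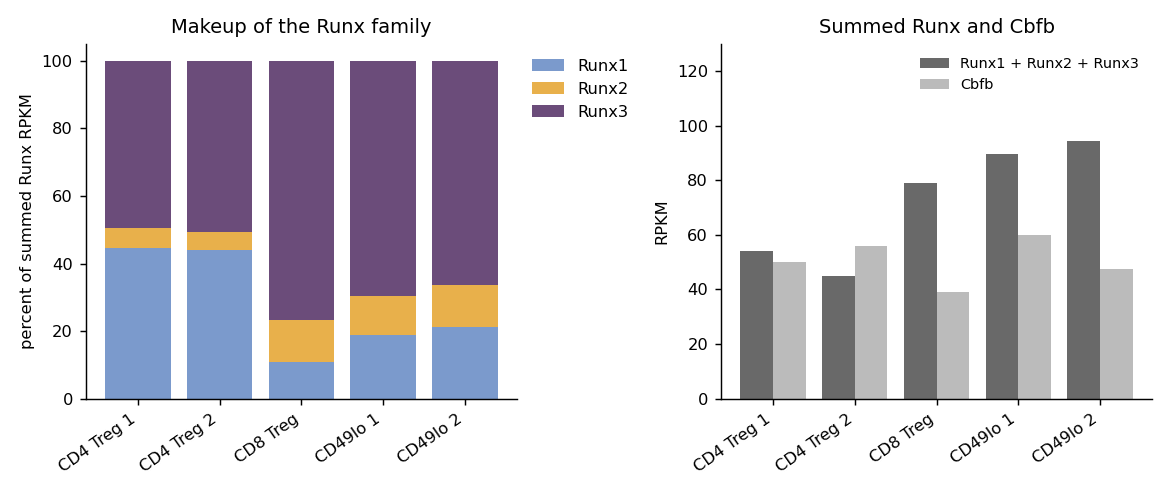
Left, percent of the summed Runx RPKM held by Runx1, Runx2 and Runx3 in each library; right, the summed Runx RPKM and the Cbfb RPKM in the same libraries, on an axis from 0. Runx3 holds 49.5% and 50.8% in CD4 Treg, 76.7% in CD8 Treg and 69.5% and 66.5% in CD49lo, and Cbfb exceeds the Runx sum in 1 library only, CD4 Treg replicate 2.

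Cbfb (ENSMUSG00000031885, chr8:105170674-105217989, plus strand), the common partner that stabilises Runx proteins on DNA, was the only lineage gene with no call in any comparison. It stood at 49.9 and 56.0 RPKM in CD4 Treg, at 39.2 in CD8 Treg and at 60.0 and 47.4 in CD49lo. CD8 Treg lay below the other 4 libraries, by -0.31 against CD49lo (95% interval -0.71 to 0.09, adjusted p = 0.391) and by -0.32 against CD4 Treg (-0.72 to 0.08, adjusted p = 0.266). CD4 Treg and CD49lo overlapped, with a difference of 0.01 (-0.31 to 0.34, adjusted p = 0.965). With the summed Runx level higher in the CD8 populations, Cbfb per unit of Runx RPKM was 0.920 and 1.24 in CD4 Treg, 0.496 in CD8 Treg and 0.670 and 0.502 in CD49lo. All 3 CD8 libraries lay below both CD4 Treg libraries in this ratio; it was not tested.

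Runx3 and Zbtb7b repress each other in the textbook circuit. Zbtb7b stood at 1.68 and 1.96 times Runx3 in CD4 Treg. In CD8 Treg the ratio was 0.0533 (exact 95% interval 0.0423 to 0.0663), and in CD49lo 0.101 (0.0873 to 0.115) and 0.124 (0.107 to 0.143). These intervals cover counting error alone, and replicates varied beyond it (chi-square per degree of freedom over genes 5.59 in CD4 Treg and 11.7 in CD49lo), so the lower ratio of the single CD8 Treg library was not tested. Between these populations Zbtb7b was called and Runx3 was not.

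Crtam (ENSMUSG00000032021, chr9:40972753-41004628, minus strand) was at 0.166 and 0.474 RPKM in CD4 Treg, from 2 and 5 reads. It stood at 27.8 RPKM in CD8 Treg and at 29.8 and 24.8 in CD49lo, so the CD8 Treg library lay between the CD49lo replicates. The fitted difference between CD4 Treg and CD49lo was -5.07 ± 0.31 (adjusted p = 6.47e-06), and between CD8 Treg and CD4 Treg 5.23 ± 0.38 (adjusted p = 3.12e-05). With so few reads these values depend on the pseudocount; the depth-scaled read ratio of CD49lo over CD4 Treg was 88.9 (exact 95% interval 42.9 to 222), and that of CD8 Treg over CD4 Treg 89.6 (43.0 to 225). CD8 Treg and CD49lo differed by 0.16, with an interval of -0.69 to 1.02 (adjusted p = 0.864), the widest of the 9 genes.

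**Figure D4:**
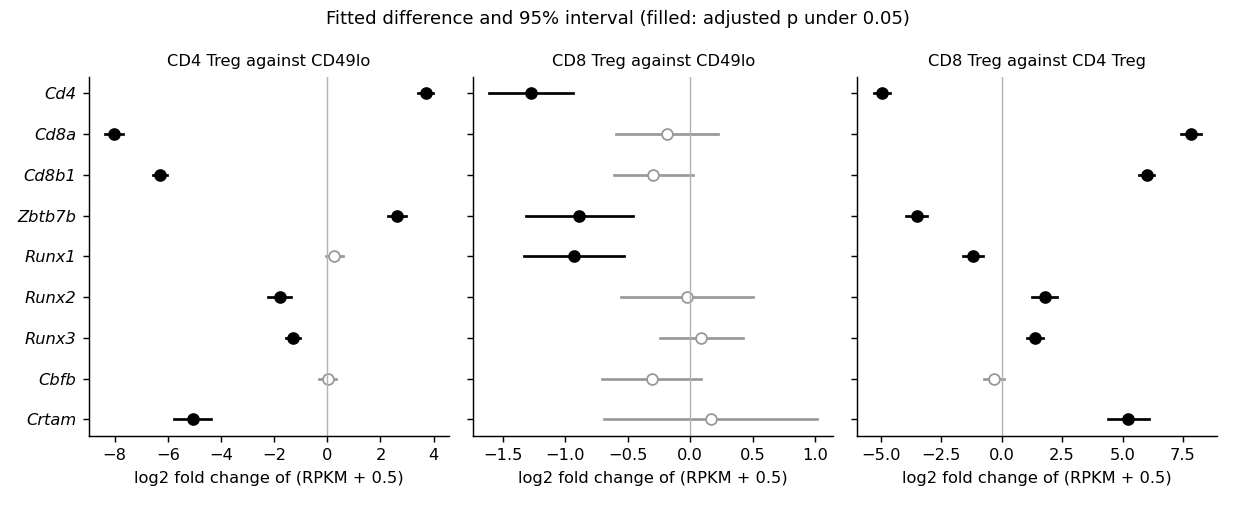
Log2 fold change of RPKM + 0.5 for each lineage gene in the 3 comparisons, with its 95% interval; filled points have an adjusted p under 0.05, and each panel has its own axis. In the middle panel (CD8 Treg against CD49lo) Cd4, Zbtb7b and Runx1 lie at -1.27, -0.88 and -0.93, and the other 6 intervals include 0.

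The order of the 9 genes within a library separated the populations. In CD4 Treg, Cd4 was highest, followed by Cbfb, Zbtb7b, Runx3 and Runx1. In all 3 CD8 libraries the order began with Cd8b1, Cd8a, Runx3, Cbfb and Crtam, and Zbtb7b was lowest. The CD49lo replicates had the same order throughout, with Runx1 and then Cd4 above Runx2. In CD8 Treg, Runx2 stood above Runx1 and Cd4, so both genes held a lower place than in CD49lo.

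Among 14 further genes of lineage choice, chosen for their known roles in thymic CD4 and CD8 commitment, 4 were higher and 3 lower in CD4 Treg than in CD49lo, beside 9.41% and 12.8% of all genes tested, with a median difference of 0.08 beside -0.03. Gata3, which promotes the CD4 fate upstream of Zbtb7b, stood at 44.7 and 50.4 RPKM in CD4 Treg, at 16.6 in CD8 Treg and at 17.9 and 16.0 in CD49lo. CD4 Treg exceeded CD49lo by 1.48 ± 0.14 for Gata3 (adjusted p = 7.48e-05) and by 0.68 ± 0.10 for Bcl11b, a factor of T cell commitment (adjusted p = 0.000868). Myb, which acts with Gata3 in thymocytes, went the other way (-2.04 ± 0.22, adjusted p = 0.000187), as did the E protein gene Tcf3 (-0.59 ± 0.11, adjusted p = 0.00377). Ets1 and Tox were also higher in CD4 Treg and Ikzf1 lower.

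Between CD8 Treg and CD49lo, 2 of these 14 were called, both higher in CD8 Treg, the direction of 1.71% of all genes, with a median of 0.06 beside -0.04. Satb1, a chromatin organiser that acts on the Cd4, Cd8 and Zbtb7b loci in thymocytes, stood at 110 RPKM in CD8 Treg and at 53.6 and 40.2 in CD49lo (1.37 ± 0.17, adjusted p = 0.00279). Lef1, a partner of TCF1 in CD8 lineage choice, stood at 128 RPKM against 90.9 and 83.8 (0.68 ± 0.13, adjusted p = 0.0146). Gata3 was at 16.6 RPKM in CD8 Treg and at 17.9 and 16.0 in CD49lo, and was not called between them (adjusted p = 0.798). Between CD8 Treg and CD4 Treg, 5 were higher (Tcf7, Ikzf1, Myb, Satb1 and Lef1) and 4 lower (Gata3, Ets1, Tox and Bcl11b), beside 8.51% and 8.35% of all genes, with a median of 0.27 beside 0.02. In this comparison Bcl11b was lower by -1.05 ± 0.12 (adjusted p = 0.000367), Gata3 by -1.38 ± 0.17 (adjusted p = 0.000599), Satb1 was higher by 1.06 ± 0.17 (adjusted p = 0.00285) and Ikzf1 by 0.69 ± 0.11 (adjusted p = 0.00302). Zbtb7a, the close relative of Zbtb7b, stood at 40.1 to 45.0 RPKM in all 5 libraries and was not called against CD49lo or between the Treg populations.

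**Figure D5:**
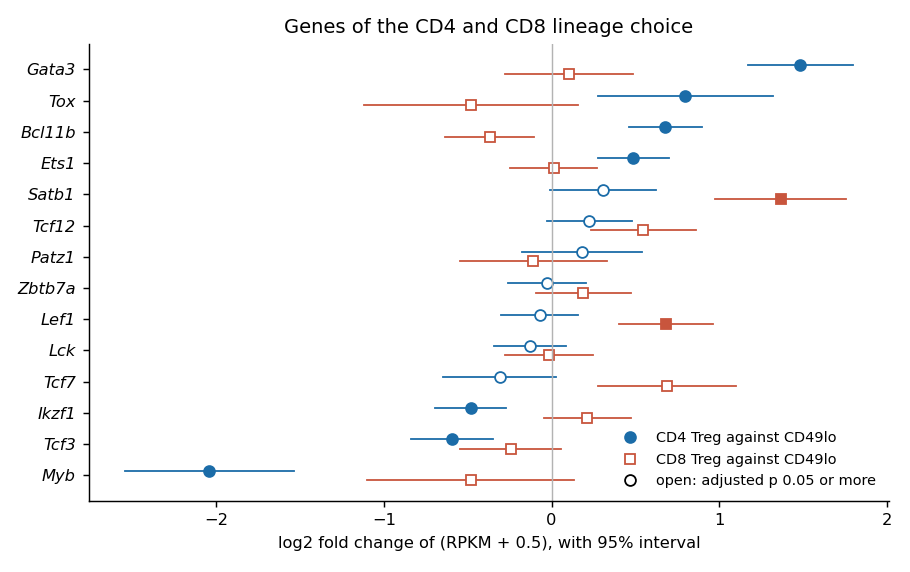
Log2 fold change of RPKM + 0.5, with 95% interval, of 14 further lineage choice genes in CD4 Treg against CD49lo (circles) and CD8 Treg against CD49lo (squares); filled symbols have an adjusted p under 0.05. Gata3 lies at 1.48 for CD4 Treg, and Satb1 and Lef1 at 1.37 and 0.68 for CD8 Treg, with different genes filled in each comparison.

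Runx proteins repress or activate through cofactors. Of 18 cofactor genes, 16 were tested; 0 were higher and 2 lower in CD4 Treg than in CD49lo (median 0.11), beside 9.41% and 12.8% of all genes. In CD8 Treg against CD49lo 0 were higher and 1 lower (median 0.03), beside 1.71% and 3.65% of all genes. Cbfa2t3, a corepressor gene of the ETO family, stood at 0.120 and 0 RPKM in CD4 Treg, at 1.55 in CD8 Treg and at 7.36 and 8.77 in CD49lo; it was lower than in CD49lo by -3.90 ± 0.36 in CD4 Treg (adjusted p = 7.10e-05) and by -1.95 ± 0.44 in CD8 Treg (adjusted p = 0.0367). Tle4, a Groucho corepressor that binds Runx proteins, stood at 15.9 and 15.2 RPKM in CD4 Treg, at 31.4 in CD8 Treg and at 24.4 and 24.5 in CD49lo. It was lower in CD4 Treg than in CD49lo by -0.61 ± 0.12 (adjusted p = 0.00564) and higher in CD8 Treg than in CD4 Treg by 1.10 ± 0.15 (adjusted p = 0.00102). Between the Treg populations, Cbfa2t3 was also higher in CD8 Treg (1.95 ± 0.44, adjusted p = 0.0155), and the deacetylase gene Hdac1 was lower there (-0.52 ± 0.13, adjusted p = 0.0218); 3 of 16 were called, with a median of -0.10, a share near the 16.9% of all genes.

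The CD8 lineage programme is a list of 9 genes that holds Eomes itself and genes of which Runx3 and Eomes are known regulators. Of these 9, 7 were lower in CD4 Treg than in CD49lo and 2 higher, Itgae and Il2rb (median -4.35), beside 12.8% and 9.41% of all genes. Eomes, a T-box factor of CD8 memory and NK cells, stood at 1.18 and 0.929 RPKM in CD4 Treg, at 82.4 in CD8 Treg and at 57.0 and 55.2 in CD49lo, and CD4 Treg was lower than CD49lo by -5.16 ± 0.16 (adjusted p = 2.28e-07). Nkg7 (-5.58 ± 0.19, adjusted p = 2.44e-07), Ccl5 (-7.15 ± 0.27, adjusted p = 5.08e-07) and Prf1 (-3.34 ± 0.21, adjusted p = 8.17e-06), genes of granule release, a chemokine and perforin, went with Crtam and the CD8 chains. Itgae, which encodes CD103 and is a known Runx3 target in CD8 T cells, ran against the Runx3 level: it stood at 61.3 and 68.9 RPKM in CD4 Treg, at 5.31 in CD8 Treg and at 19.9 and 10.4 in CD49lo.

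Between CD8 Treg and CD49lo, the same 9 genes gave 2 calls, beside 5.37% of all genes, with a median of -1.02. Il2rb, the beta chain of the IL-2 and IL-15 receptors, was higher in CD8 Treg (1.18 ± 0.12, adjusted p = 0.00112) and Gzmb, granzyme B, was lower (-4.47 ± 0.45, adjusted p = 0.00102). Between CD8 Treg and CD4 Treg, 5 were higher, led by Eomes (5.85 ± 0.20, adjusted p = 5.67e-07), Nkg7 (5.17 ± 0.23, adjusted p = 2.27e-06), Ccl5 (6.14 ± 0.33, adjusted p = 5.70e-06) and Prf1 (3.13 ± 0.26, adjusted p = 6.79e-05). Itgae was lower and 3 were not called, with a median of 3.13, beside 8.51% of all genes higher and 8.35% lower. NK cell markers, which share part of this programme, were also higher in CD8 Treg than in CD4 Treg for 5 of 5 genes; their part was not tested.

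The 4 tested genes associated with CD4 help had their highest levels in CD4 Treg. Of these, 3 were higher in CD4 Treg than in CD49lo (median 1.86, beside 9.41% of all genes), and 4 were lower in CD8 Treg than in CD4 Treg (median -1.45, beside 8.35%). In CD8 Treg against CD49lo 0 were called lower, 1 was higher and 3 were not called (median -0.08). Over all genes 3.65% were lower and 1.71% higher there, with a median of -0.04. Cd40lg, the helper ligand that ThPOK is known to favour, stood at 34.4 and 33.7 RPKM in CD4 Treg, at 3.03 in CD8 Treg and at 6.51 and 3.29 in CD49lo; the difference between CD4 Treg and CD49lo was 2.77 ± 0.34 (adjusted p = 0.000350) and that between CD8 Treg and CD4 Treg -3.20 ± 0.41 (adjusted p = 0.000804). Icos, a costimulatory receptor, was higher in CD4 Treg than in CD49lo by 2.36 ± 0.24 (adjusted p = 0.000139) and lower in CD8 Treg than in CD4 Treg by -2.09 ± 0.30 (adjusted p = 0.00144). Bcl6, the factor of follicular T cells, was lower in CD8 Treg than in CD4 Treg by -0.81 ± 0.22 (adjusted p = 0.0350) and not called between CD4 Treg and CD49lo (0.17, adjusted p = 0.560). Cxcr5, the receptor that brings cells to B cell follicles, stood at 45.8 and 51.3 RPKM in CD4 Treg, at 28.2 in CD8 Treg and at 18.4 and 19.6 in CD49lo. CD8 Treg exceeded CD49lo by 0.69 ± 0.16 (adjusted p = 0.0396) and lay below CD4 Treg by -0.66 ± 0.16 (adjusted p = 0.020), and CD4 Treg exceeded CD49lo by 1.36 ± 0.13 (adjusted p = 8.74e-05). Il4 was not tested, with levels of 0 to 0.252 RPKM.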

How the data were processed

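The authors deposited RPKM per gene; CASAVA, STAR and mm10 are named, without versions, in the submitters' processing notes. Each value times gene length was a whole multiple of 1 step (100% within 0.02), so whole reads could be recovered, and libraries could be compared in depth. All 5 sample columns were used. Trimmed mean of M values factors from the recovered reads (0.935 to 1.038) scaled the RPKM. A linear model was fitted in limma 3.58.1 (R 4.3.3) on log2(RPKM + 0.5), over 5 libraries in 3 groups with no replicate block, with 2 residual degrees of freedom and a prior variance that follows mean log2 RPM; the lone CD8 Treg library takes its variance from the replicated groups. Genes were tested where 1 library or more held the equivalent, at median depth, of 10 reads, and all libraries together 15 reads. P-values are two-sided with Benjamini-Hochberg adjustment over 13298 genes. The scripts were tested on simulated data. Pseudocounts, filters, scaling, the prior, limma-voom, the libraries fitted, a block and leaving out libraries were varied. Members and gene lists were chosen with earlier results of these data known. Named are all members and, of each gene list, up to 4 called genes per comparison with the smallest p; other genes named (Itgae, Zbtb7a, the neighbours, other called list genes, and Gata3 and Tle4 levels) were chosen after their values were seen. Counting intervals cover counting error only. The own values of some marker genes are not reported here.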

Additional observations from a re-analysis of the deposited data

How the results depend on the processing

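In 11 or 12 alternatives per comparison that kept all libraries of that comparison, the members called between CD4 Treg and CD49lo, and Cd4, Cd8a, Cd8b1, Zbtb7b, Runx3 and Crtam between the Treg populations, kept their call, except Runx2 between CD4 Treg and CD49lo with no filter (adjusted p = 0.0599). Runx1 and Runx2 between the Treg populations lost theirs with no filter (adjusted p = 0.0822 and 0.0676) and with only these groups fitted (0.0590 and 0.0640). Between CD8 Treg and CD49lo only Cd4 kept its call in all 11. Genes called there fell from 714 to 452 with no filter, 291 with a filter of 1 RPKM and 365 with a prior that follows mean log2 RPKM, each with 1 member; no filter gave 685 genes for CD4 Treg against CD49lo and 1072 for CD8 Treg against CD4 Treg, and the last fell to 759 genes when only the groups compared were fitted. The share higher in CD8 Treg among genes called against CD49lo was 31.9%, but 20.4% with no scaling, which moved the median of all genes from -0.04 to -0.16, 50.8% with limma-voom, 53.6% with the 1 RPKM filter and 85.6% with no filter. With no scaling Cbfb reversed between CD4 Treg and CD49lo (-0.0137), as did Runx3 between CD8 Treg and CD49lo (-0.0448).

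Leaving out 1 library at a time gave 0 to 1459, 0 to 204 and 0 to 976 genes called, for CD4 Treg against CD49lo, CD8 Treg against the same and the Treg populations against each other, and 0 to 7, 0 to 1 and 0 to 8 members. Both fits without a CD49lo library gave 0 calls with limma, although 7, 3 to 4 and 8 members had an unadjusted p under 0.05, with 3577 to 3634, 2208 to 2248 and 3635 to 3643 genes. Such fits hold 45 to 322 genes with no spread between replicates, against 1 with all libraries, and these enter the prior. With the prior taken from genes with spread, chosen after seeing the data, all 4 such fits called 7, 3 and 8 members and 2491 to 3050, 950 to 1219 and 2106 to 2999 genes. The same prior with no filter gave 273 genes and 1 member for CD8 Treg against CD49lo and 1494 genes for CD8 Treg against CD4 Treg. The Cbfb difference between CD4 Treg and CD49lo ranged from -0.167 (without CD49lo replicate 2) to 0.207 (without CD49lo replicate 1), at -0.0575 without CD4 Treg replicate 2, and that of Runx2 between CD8 Treg and CD49lo from -0.0851 to 0.0365 (without CD49lo replicate 2). The cause of the other shifts was not tested.

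A replicate block in CD4 Treg against CD49lo gave 3572 genes and 7 members, and changed no call of a member. The replicate differences of these groups correlated at -0.0202 over 13298 genes. No shared shift of same-numbered libraries was thus seen, but this cannot tell whether they shared an animal or a batch. Depth limits Cd8a and Crtam in CD4 Treg, at 2 to 8 reads: their differences from CD49lo ranged from -9.13 to -7.38 and from -6.38 to -4.39 over the alternatives.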

Other observations

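Beside Cd4 on chromosome 6 lies Lag3, which encodes an inhibitory receptor related to CD4, 16139 bases away on the same strand. It stood at 23.5 and 26.2 RPKM in CD4 Treg, at 2.47 in CD8 Treg and at 20.1 and 17.0 in CD49lo. CD8 Treg was the library that stood apart: Lag3 was not called between CD4 Treg and CD49lo (0.44, adjusted p = 0.151) and was lower in CD8 Treg than in CD49lo (-2.56, adjusted p = 0.000735). Ptms, which encodes parathymosin and lies 25459 bases from Cd4, had the same order at 143 and 153, 12.5, and 121 and 108 RPKM (CD8 Treg against CD49lo -3.02, adjusted p = 8.50e-05). Beside the CD8 genes, Rmnd5a stood at 14.6 to 19.1 RPKM and Krcc1 at 38.0 to 48.0 RPKM in the 5 libraries, and neither was called in any comparison.

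The tested genes most like each of 4 lineage genes across the 5 libraries were ranked by the root mean square difference of centred log2(RPKM + 0.5) values; with 3 groups many genes can share a pattern. Nearest to Cd4 were the chemokine receptor gene Ccr4 (0.233), Folr4 (0.245) and the transcription factor gene Maf (0.268). Nearest to Cd8a was Klrd1, which encodes CD94 (0.263), with the next, Ly6c2, at 0.708. P2rx7, an ATP-gated channel gene, was nearest to Zbtb7b (0.0719), followed by Ldhb (0.129). Nearest to Runx3 were Syne2 (0.0494), Hrh2 (0.0530) and Nrros (0.0798). For genes near the floor the added 0.5 RPKM shapes these distances, so a close rank need not mean a like fold change. Ccr4 stood at 0.118 RPKM in CD8 Treg. In the CD4 Treg libraries Klrd1 stood at 0 in both and Syne2 at 1.13 and 0.838 RPKM.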
